A study of Mus musculus with 6 samples.

Results

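The 28 genes described here make fatty acids and cholesterol, or control the genes that do. They were taken by symbol from a table of 19764 genes measured in primary mouse hepatocytes, the parenchymal cells of the liver. The rule uses no expression value, but the members were chosen with earlier results of these data known. All 28 were present, and all 28 passed the filter on low read numbers. They fall into a fatty acid arm of 14 genes and a sterol arm of 14 genes. The cells came from Bl6/N mice. In both groups they spent 16 h in starvation medium with 5 mM glucose and then 8 h with 1 µM corticosterone, which activates the glucocorticoid receptor, and 10 µM WY-14643, which activates PPARα. The Control group (3 libraries) received vehicle for those 8 h, and the TNF group (3 libraries) received 1 ng/ml of tumor necrosis factor. Every value therefore describes TNF acting on cells that were already given a glucocorticoid and a PPARα ligand. The labels name no separate animals or cultures for the 3 libraries of a group. A p-value measures only the spread between these libraries or, where same-numbered libraries are paired, that of the differences within pairs. Either spread may be technical.

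Fatty acid synthesis starts in the cytosol, where citrate is split to acetyl-CoA, acetyl-CoA is carboxylated to malonyl-CoA, and fatty acid synthase builds palmitate from both. Palmitate is then lengthened, desaturated and joined to glycerol. Cholesterol synthesis also starts from acetyl-CoA and passes through mevalonate, isoprenoid units, squalene and lanosterol. Transcription of the first pathway is driven in liver mainly by SREBP-1c and by the glucose-sensing factor ChREBP, and that of the second mainly by SREBP-2. SREBP precursors sit in the endoplasmic reticulum bound to SCAP, and INSIG proteins hold them there when sterols are plentiful. Fasting, glucocorticoid and PPARα signals are known to act on the fatty acid pathway.

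Promoters of 5 genes are shown because these genes carry the largest changes of each arm (Elovl6 and Acacb, Dhcr7 and Mvk) and because 1 of them, Hmgcs1, holds letters known as a sterol regulatory element. Each stretch is the 250 bases before the RefSeq start (build GRCm38.p6, 1 start per gene, plus strand in all 5), written 5′ to 3′. Capitals mark CCAAT or its reverse complement ATTGG, the letters bound by the factor NF-Y that works beside SREBPs, and in Hmgcs1 also the sterol regulatory element core. They lie at chr3:129532136-129532385, chr5:114165268-114165517, chr7:143822917-143823166, chr5:114444019-114444268 and chr13:119690101-119690350, in that order.
Elovl6: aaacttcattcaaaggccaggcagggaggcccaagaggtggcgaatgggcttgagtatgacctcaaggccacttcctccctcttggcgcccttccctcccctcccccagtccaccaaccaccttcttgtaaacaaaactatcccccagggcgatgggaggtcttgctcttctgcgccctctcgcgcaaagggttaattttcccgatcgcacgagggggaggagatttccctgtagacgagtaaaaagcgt
Acacb: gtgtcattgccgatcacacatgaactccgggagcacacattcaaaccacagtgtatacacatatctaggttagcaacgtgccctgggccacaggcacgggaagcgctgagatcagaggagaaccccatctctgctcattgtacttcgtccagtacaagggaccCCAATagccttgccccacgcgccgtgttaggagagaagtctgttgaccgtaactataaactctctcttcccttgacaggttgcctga
Dhcr7: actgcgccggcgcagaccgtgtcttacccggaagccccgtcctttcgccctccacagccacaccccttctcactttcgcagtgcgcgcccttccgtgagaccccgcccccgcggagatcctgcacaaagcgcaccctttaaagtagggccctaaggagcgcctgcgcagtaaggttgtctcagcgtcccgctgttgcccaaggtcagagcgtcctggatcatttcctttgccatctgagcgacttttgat
Mvk: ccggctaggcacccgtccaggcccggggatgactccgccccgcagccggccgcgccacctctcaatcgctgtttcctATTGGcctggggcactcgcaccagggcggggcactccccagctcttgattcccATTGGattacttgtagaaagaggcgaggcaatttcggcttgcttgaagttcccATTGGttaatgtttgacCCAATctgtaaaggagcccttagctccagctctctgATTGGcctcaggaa
Hmgcs1: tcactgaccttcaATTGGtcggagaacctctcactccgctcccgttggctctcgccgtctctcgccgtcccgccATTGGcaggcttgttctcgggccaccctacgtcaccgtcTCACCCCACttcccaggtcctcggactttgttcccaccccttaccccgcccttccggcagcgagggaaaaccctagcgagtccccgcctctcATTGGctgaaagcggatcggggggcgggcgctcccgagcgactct

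Of the 28 genes, 23 had an entry in the RefSeq promoter table, and Scd1, Scd2, Sqle, Fdps and Fdft1 were not matched. CCAAT was searched on both strands. It was present in 10 of 11 sterol arm promoters (90.9%) and in 5 of 12 fatty acid arm promoters (41.7%), beside 5390 of 15057 promoters of genes in the table (35.8%). The sterol arm promoter without it was Dhcr7, whereas Mvk held 5 copies and Hmgcs1 held 3. The sterol regulatory element core TCACNCCAC, also searched on both strands, was found in Hmgcs1 and in Mlxipl. This is 2 of 23 promoters (8.70%), beside 0.990% of the 15057. A consensus for NF-κB, the factor through which TNF acts on many genes, was found in Acacb, Srebf1 and Mvk, 3 of 23 (13.0%), beside 8.07%. CCAAT was found in 6 of the 9 matched genes that passed the blocked test described next and in 9 of the 14 that did not. These are matches of letters in 250 bases and do not show that a factor was bound. A missing match to these fixed letters does not show that a promoter lacks such an element.

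The libraries held between 17612060 and 25114289 reads over genes, and 3 reads, the most that a count of 0 allows, correspond to 0.124 to 0.166 CPM (reads scaled to library size). Levels are in CPM, with the SD over 3 libraries after a mean, and a change is the log2 of CPM + 1 in TNF minus that in Control. Libraries with the same number in both groups deviated together from their group means, so each change was tested with limma both without a block (unpaired) and with the replicate number as a block (blocked), over 12293 genes with Benjamini-Hochberg adjustment. The unpaired fit was set as the main fit and the blocked fit as its companion. "Rose" and "fell" below nevertheless stand for an adjusted p under 0.05 in the blocked fit, and SEs and 95% intervals are those of the blocked fit. TNF acted in these cells: the inhibitor of NF-κB Nfkbia rose by 0.93 and the chemokine Ccl2 by 3.83 on the log2 scale. Hepatocyte markers led by albumin summed to 33375 to 50761 CPM in Control and 32472 to 47862 CPM in TNF, a sum that is mostly albumin. Of the 7 hepatocyte markers tested 3 fell, Hnf4a (0.43 on the log2 scale), Apoa1 (0.26) and Ttr (0.11), and none rose. All 10 macrophage markers stayed below 1 CPM in every library, and Adipoq, Plin1 and Lep, which define fat cells, did too. The 5 adipocyte markers summed to 48.7 to 71.4 CPM in Control and 41.0 to 65.0 CPM in TNF, led by Cidec. Of the 2 tested, Cidec fell by 0.28 and Fabp4 did not pass (0.04, limma blocked adjusted p = 0.788). Endothelial markers summed to 85.1 to 161 and 80.1 to 153 CPM, and 1 of 7 tested, Stab2, fell by 0.19. Stellate cell markers summed to 19.4 to 69.1 and 20.7 to 47.2 CPM, led by Reln, the 1 of 5 tested that fell (0.38). Cholangiocyte markers summed to 37.6 to 46.5 and 42.1 to 63.8 CPM, led by Sox9. Of the 4 cholangiocyte markers tested Sox9 rose by 0.58 and Pkhd1 fell by 0.31, so that list did not move as one. The part of these other cells in the results was not tested, and fewer cells of a type and less RNA per cell cannot be told apart in bulk samples. In GENCODE a gene on the opposite strand overlaps 12 of the 28, Elovl6 and Acacb among them, and Srebf1 and Fdft1 overlap the table's Rai1 and Ctsb. The strand setting of the counting is not given in the sources used here, so reads of such partners cannot be told apart.

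With TNF, genes of each arm moved in both directions. Of the 14 fatty acid arm genes, Elovl6 rose, Acacb, Gpam, Scd1 and Elovl5 fell, and 9 did not pass. In the sterol arm, Dhcr7, Msmo1 and Srebf2 rose, Mvk and Insig1 fell, and 9 did not pass. Together 10 of 28 genes (35.7%) passed the blocked test, beside 20.6% of all genes tested. The 4 that rose compare with 9.4% of all genes higher, and the 6 that fell with 11.2% lower. In the unpaired fit of limma none of the 28 genes passed, beside 0.431% of all genes. Unadjusted p-values under 0.05 in that fit were reached by 4 genes, Elovl6, Acacb, Dhcr7 and Mvk, and limma-voom without a block called 0. Changes of all 28 genes stayed between -0.37 (Acacb) and 0.50 (Elovl6) on the log2 scale.

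**Figure D1:**
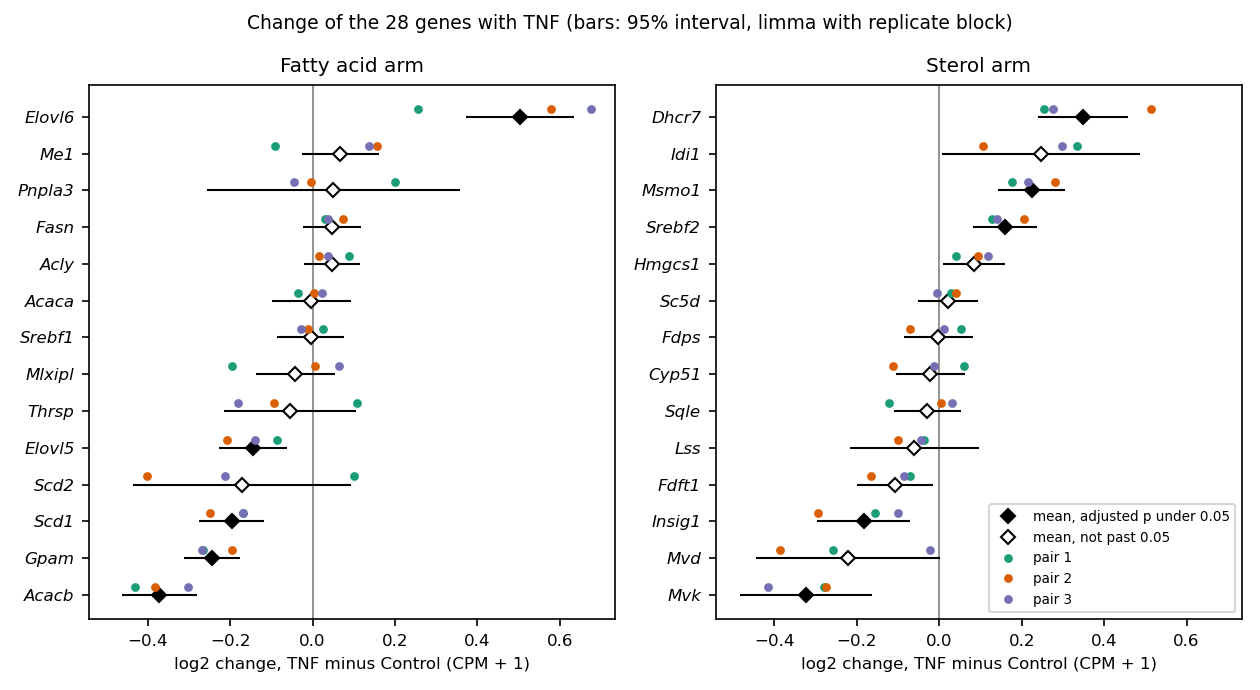
Log2 change (TNF minus Control, CPM + 1) of the 28 genes, by arm. Diamonds with bars are the mean change with its 95% interval in the blocked limma fit, coloured points are the 3 same-numbered pairs, and filled diamonds passed the blocked test. The 5 genes of each arm that passed point in both directions, from -0.37 for Acacb to 0.50 for Elovl6.

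Acly, Acaca and Fasn, whose enzymes lead from citrate to palmitate in the cytosol, did not pass the test. The carboxylase Acacb, described below, did. Acly, which splits citrate to give cytosolic acetyl-CoA, measured 244, 254 and 275 CPM in Control 1, 2 and 3 and 259, 257 and 282 CPM in TNF 1, 2 and 3. Acaca, the cytosolic acetyl-CoA carboxylase, measured 49.4, 61.9 and 52.3 CPM in Control and 48.2, 62.0 and 53.1 CPM in TNF. Fasn, fatty acid synthase, measured 138, 186 and 169 CPM in Control and 141, 196 and 174 CPM in TNF. In these 3 genes the groups overlapped, and number 1 was lowest in both groups for Acaca and Fasn. Their changes of 0.05, -0.0032 and 0.05 did not pass, with limma blocked adjusted p of 0.343, 0.973 and 0.356. The 95% interval of the fold change was 0.986 to 1.08 for Acly, 0.933 to 1.07 for Acaca and 0.984 to 1.09 for Fasn.

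Acacb encodes the acetyl-CoA carboxylase of the mitochondrial surface, whose malonyl-CoA restrains the entry of fatty acids into mitochondria. It measured 79.5, 73.7 and 97.8 CPM in Control 1, 2 and 3 and 58.7, 56.3 and 79.2 CPM in TNF 1, 2 and 3. Control 2 lay below TNF 3, so the groups overlapped, but TNF was lower in each of the 3 pairs, at 0.738, 0.764 and 0.810 of Control. The mean went from 83.7 ± 12.6 to 64.7 ± 12.6 CPM (n = 3 each), a fall of 0.37 on the log2 scale (SE 0.04; limma adjusted p = 2.14e-05 blocked and 0.555 unpaired). Acacb lies at chromosome 5, 114165518 to 114250758 (mm10). For Acaca, whose protein catalyses the same reaction in the cytosol, the 95% interval of the change was -0.10 to 0.09 on the log2 scale. Me1, the malic enzyme that supplies NADPH for the synthase, measured 237, 219 and 168 CPM in Control and 223, 244 and 185 CPM in TNF. Its change of 0.07 did not pass (limma blocked adjusted p = 0.324). Pair 1 went down and pairs 2 and 3 went up, and without pair 1 the change was 0.15 (adjusted p = 0.0108).

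Among the genes that lengthen and desaturate fatty acids, the elongase of palmitate rose and 2 others fell. Elovl6 elongates palmitate to stearate. Its level was 104, 84.3 and 67.2 CPM in Control 1, 2 and 3 and 124, 126 and 108 CPM in TNF 1, 2 and 3. All 3 TNF libraries lay above all 3 Control libraries, though TNF 3 exceeded Control 1 by little, and the ratios within the pairs were 1.19, 1.50 and 1.61. From 85.2 ± 18.5 to 119.6 ± 10.2 CPM, Elovl6 rose by 0.50 (SE 0.06, 95% interval 0.37 to 0.63; limma adjusted p = 3.64e-05 blocked and 0.343 unpaired). This was the largest change among the 28 genes, and Elovl6 lies at chromosome 3, 129532386 to 129638493 (mm10).

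Elovl5 elongates polyunsaturated fatty acids and moved the other way. It measured 117, 122 and 102 CPM in Control and 109.8, 106 and 92.8 CPM in TNF, a fall of 0.14 (limma adjusted p = 0.0143 blocked and 0.847 unpaired). Groups overlapped, each pair was lower with TNF, and without pair 2 the change no longer passed (adjusted p = 0.119). Scd1 is the stearoyl-CoA desaturase of liver, which turns stearate into oleate. It measured 1359, 2787 and 2144 CPM in Control 1, 2 and 3 and 1208, 2346 and 1907 CPM in TNF 1, 2 and 3. Number 1 was lowest and number 2 highest in both groups, and this 1.99-fold range over the numbers was far wider than the difference with TNF. Scd1 fell by 0.20 (SE 0.04; limma adjusted p = 0.00143 blocked and 0.995 unpaired), with pair ratios of 0.889, 0.842 and 0.889. Scd2, the close copy of Scd1 that prevails outside the liver, measured 4.09, 6.20 and 5.35 CPM in Control and 4.45, 4.45 and 4.49 CPM in TNF. Its change of -0.17 did not pass (limma blocked adjusted p = 0.376), and a split of reads between these 2 related genes was not tested.

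Gpam encodes the mitochondrial acyltransferase that joins the first fatty acid to glycerol-3-phosphate. It measured 298, 382 and 304 CPM in Control 1, 2 and 3 and 248, 333 and 252 CPM in TNF 1, 2 and 3. Number 2 stood above numbers 1 and 3 in both groups, the groups overlapped, and every pair was lower with TNF, at 0.832, 0.872 and 0.829 of Control. Gpam fell by 0.24 (SE 0.03; limma adjusted p = 6.93e-05 blocked and 0.802 unpaired). Pnpla3, a lipid droplet protein that acts on triglyceride, was close to the detection limit, with 8 to 19 reads per library and 0.663, 0.703 and 0.438 CPM in Control against 0.909, 0.698 and 0.394 CPM in TNF. A change of Pnpla3 was not detectable at this depth (log2 of CPM + 1, 0.05, 95% interval -0.26 to 0.36). At such levels the added 1 CPM understates fold changes, so this interval does not bound them. The ratios of CPM within the pairs were 1.37, 0.992 and 0.900. Thrsp, the Spot 14 protein that promotes lipogenesis, measured 27.0, 17.7 and 23.0 CPM in Control and 29.1, 16.6 and 20.2 CPM in TNF, with 1 pair higher and 2 lower (log2 -0.05, 95% interval -0.21 to 0.10).

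Neither transcription factor of the fatty acid arm passed the test. Srebf1, the gene of SREBP-1, measured 76.7, 90.6 and 99.7 CPM in Control and 78.1, 89.9 and 97.8 CPM in TNF. Its log2 change was -0.0046 (95% interval -0.09 to 0.08; limma blocked adjusted p = 0.954), and the 2 groups nearly coincided number by number. Mlxipl, the gene of ChREBP, measured 154, 171 and 161 CPM in Control and 135, 172 and 169 CPM in TNF. Pair 1 was lower and the other two were higher, giving -0.04 (95% interval -0.14 to 0.05). These are RNA levels summed over isoforms, with reads over introns counted as well. Processing of the SREBP precursor and the activity of ChREBP were not measured.

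**Figure D2:**
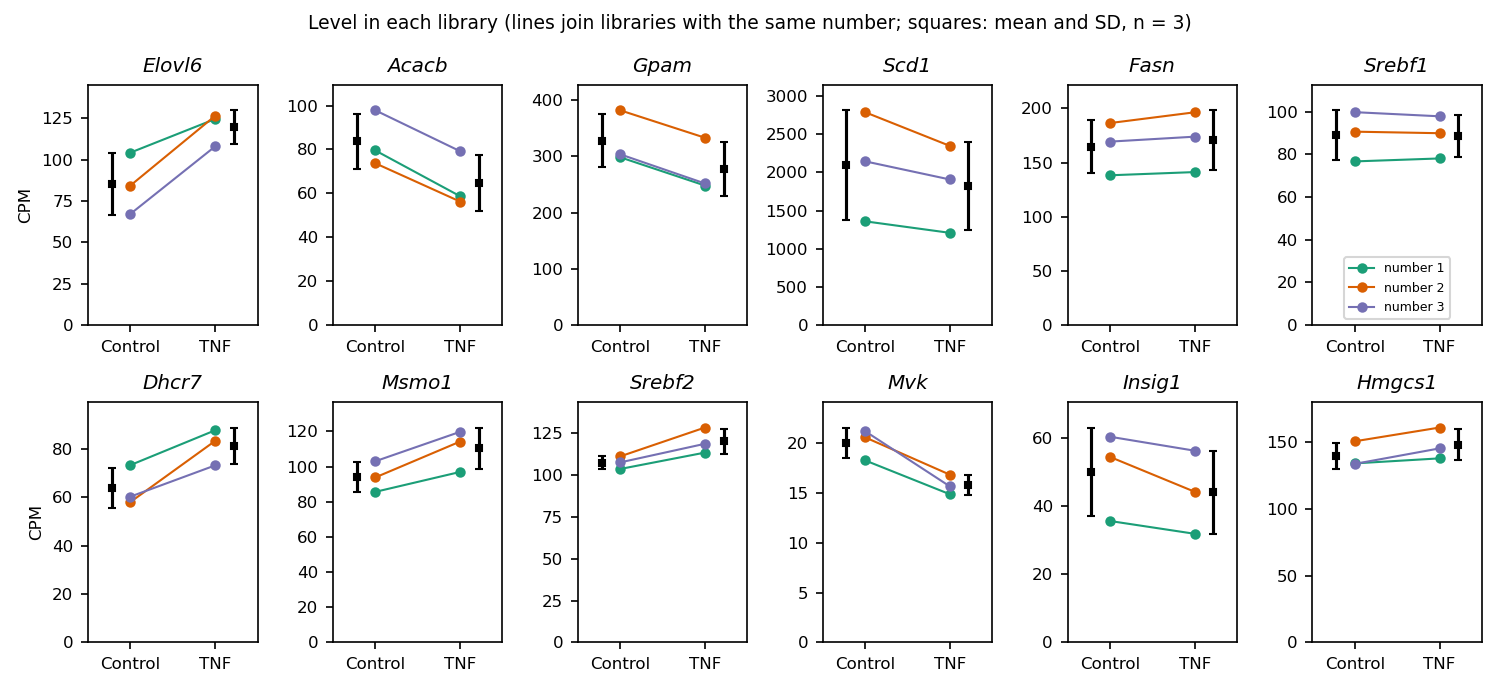
CPM (linear axis from 0) of 6 fatty acid arm genes (upper row) and 6 sterol arm genes (lower row) in each library. Lines join libraries with the same number, and squares with bars are mean and SD of 3 libraries. Lines run upward in all pairs for Elovl6, Dhcr7, Msmo1, Srebf2 and Hmgcs1 and downward in all pairs for Acacb, Gpam, Scd1, Mvk and Insig1, while Fasn and Srebf1 are nearly level.

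In the sterol arm the early enzymes of the mevalonate route were mixed. Hmgcs1, the cytosolic HMG-CoA synthase and the gene shown above with a sterol regulatory element, measured 134, 151 and 134 CPM in Control and 138, 161 and 145 CPM in TNF. Each pair was higher with TNF, but the change of 0.08 (95% interval 0.01 to 0.16) did not pass (limma blocked adjusted p = 0.106). Mvk, mevalonate kinase, measured 18.3, 20.6 and 21.2 CPM in Control 1, 2 and 3 and 14.9, 16.8 and 15.7 CPM in TNF 1, 2 and 3. Every TNF library lay below every Control library. Mvk fell by 0.32 (SE 0.07; limma adjusted p = 0.0065 blocked and 0.379 unpaired), from 20.0 ± 1.55 to 15.8 ± 0.988 CPM. It lies at chromosome 5, 114444269 to 114460590 (mm10).

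Mvd, which decarboxylates mevalonate diphosphate, measured 9.17, 9.14 and 8.42 CPM in Control and 7.51, 6.76 and 8.28 CPM in TNF. The groups did not overlap, yet the change of -0.22 did not pass (limma blocked adjusted p = 0.163). Idi1, the isomerase of isopentenyl diphosphate, measured 3.70, 6.66 and 3.70 CPM in Control and 4.93, 7.24 and 4.78 CPM in TNF. Each pair was higher with TNF, but with 67 to 161 reads per library its log2 change of 0.25 (95% interval 0.0067 to 0.49) did not pass (limma blocked adjusted p = 0.146). Fdps, which makes farnesyl diphosphate, measured 83.0, 119 and 105 CPM in Control and 86.1, 113 and 106 CPM in TNF, a change of -0.002 (95% interval -0.09 to 0.08).

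None of the 3 enzymes that form and close squalene passed. Fdft1, squalene synthase, measured 65.8, 71.4 and 67.3 CPM in Control and 62.6, 63.6 and 63.4 CPM in TNF. The groups did not overlap, and the change of -0.11 missed the threshold (limma blocked adjusted p = 0.0967). Sqle, squalene epoxidase, measured 132, 167 and 146 CPM in Control and 121, 168 and 149 CPM in TNF (log2 -0.03, 95% interval -0.11 to 0.05). Lss, the lanosterol synthase, measured 14.9, 22.1 and 18.7 CPM in Control and 14.5, 20.5 and 18.1 CPM in TNF (log2 -0.06, 95% interval -0.22 to 0.10). For Lss, 11269 of 25535 bases were left out of the counting. Sqle and Lss lay within the Control range or close to it in every TNF library.

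After lanosterol, 2 genes rose and 2 did not pass. Cyp51, the lanosterol demethylase, measured 104, 159.7 and 130.3 CPM in Control and 108, 148 and 129 CPM in TNF, with number 1 lowest and number 2 highest in both groups (log2 -0.02, 95% interval -0.11 to 0.06). Msmo1, the sterol C4-methyl oxidase that acts soon after it, measured 85.6, 93.8 and 103 CPM in Control 1, 2 and 3 and 97.0, 114 and 119.8 CPM in TNF 1, 2 and 3. Msmo1 rose by 0.22 (SE 0.04; limma adjusted p = 0.000638 blocked and 0.627 unpaired), with overlap between the groups and pair ratios of 1.13, 1.22 and 1.16. Sc5d, the sterol C5-desaturase, measured 153, 155 and 143 CPM in Control and 156, 159.7 and 142 CPM in TNF (log2 0.02, 95% interval -0.05 to 0.09).

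Dhcr7 reduces 7-dehydrocholesterol to cholesterol and had the largest change of the sterol arm. It measured 73.4, 58.1 and 60.4 CPM in Control 1, 2 and 3 and 87.8, 83.4 and 73.3 CPM in TNF 1, 2 and 3. Control 1 lay just above TNF 3, the only overlap between the groups, and within the pairs TNF was higher at ratios of 1.20, 1.44 and 1.21. Dhcr7 rose by 0.35 (SE 0.05; limma adjusted p = 0.000198 blocked and 0.374 unpaired), from 64.0 ± 8.26 to 81.5 ± 7.45 CPM. Its position is chromosome 7, 143823167 to 143848410 (mm10).

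The 2 regulators of the sterol arm moved in opposite directions. Srebf2, the gene of SREBP-2, measured 104, 111 and 108 CPM in Control and 113, 128 and 119 CPM in TNF. The groups did not overlap, and Srebf2 rose by 0.16 (SE 0.04; limma adjusted p = 0.00602 blocked and 0.597 unpaired). Insig1 encodes a retention protein of SREBP precursors and is itself a well-known SREBP target. Insig1 measured 35.7, 54.5 and 60.4 CPM in Control and 31.9, 44.3 and 56.3 CPM in TNF. Its groups overlapped widely, with number 1 lowest and number 3 highest in both, and it fell by 0.18 (SE 0.05; limma adjusted p = 0.0224 blocked and 0.983 unpaired). Without pair 2 neither passed, at adjusted p of 0.0519 for Srebf2 and 0.210 for Insig1.

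Set side by side, the arms had nearly the same centre. The median log2 change was -0.02 in the fatty acid arm and -0.01 in the sterol arm, beside -0.01 over all genes tested. The difference of the medians was -0.01, and in the 3 pairs it was -0.04, 0.03 and -0.04 (SD 0.04). The sign of this difference was not the same in the 3 pairs. The median size of the change, whatever its direction, was 0.06 in the fatty acid arm, 0.13 in the sterol arm and 0.09 over all genes. These sizes include genes of few reads that did not pass. Among them are Idi1 (0.25, SE 0.11) and Mvd (-0.22, SE 0.10) in the sterol arm and Scd2 (-0.17, SE 0.12) in the fatty acid arm. The difference in size between the arms was not tested. TNF and Control did not overlap in 5 of the 28 genes, beside 13.3% of all genes tested. These were Elovl6 and Srebf2, higher with TNF, and Mvk, Mvd and Fdft1, lower. All 3 pairs agreed in direction in 17 of 28 genes (60.7%), 8 higher and 9 lower, beside 51.1% of all genes. In the authors' deposited table, an adjusted p under 0.05 was given for 10 of the 28, 4 higher and 6 lower. The share over its 19764 genes was 15.2%, but these include genes with too few reads to be tested here. Among the 12293 genes tested here, the authors' table gave 1303 higher and 1596 lower.

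Libraries also differed by replicate number. The range over the 3 numbers exceeded the TNF change in 22 of 28 genes (78.6%), beside 83.2% of all genes tested, so the share is near the background. Number 1 was the lowest in both groups in 16 of the 28 (57.1%), 7 in the fatty acid arm and 9 in the sterol arm, beside 22.7% of all genes. Number 2 was the highest in both groups in 14 of the 28, beside 26.6% of all genes. The median range over the numbers was 0.37 in the fatty acid arm, 0.28 in the sterol arm and 0.25 over all genes on the log2 scale. The widest ranges were those of Scd1 (1.99-fold), Insig1 (1.71-fold), Thrsp (1.60-fold) and Idi1 (1.52-fold). Thrsp ran the other way, with number 1 highest and number 2 lowest in both groups. Of the 7 hepatocyte markers tested, number 1 was lowest in both groups in 3, albumin among them, and highest in both groups in 2, Hnf4a among them. The part of these markers in the spread was not tested.

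**Figure D3:**
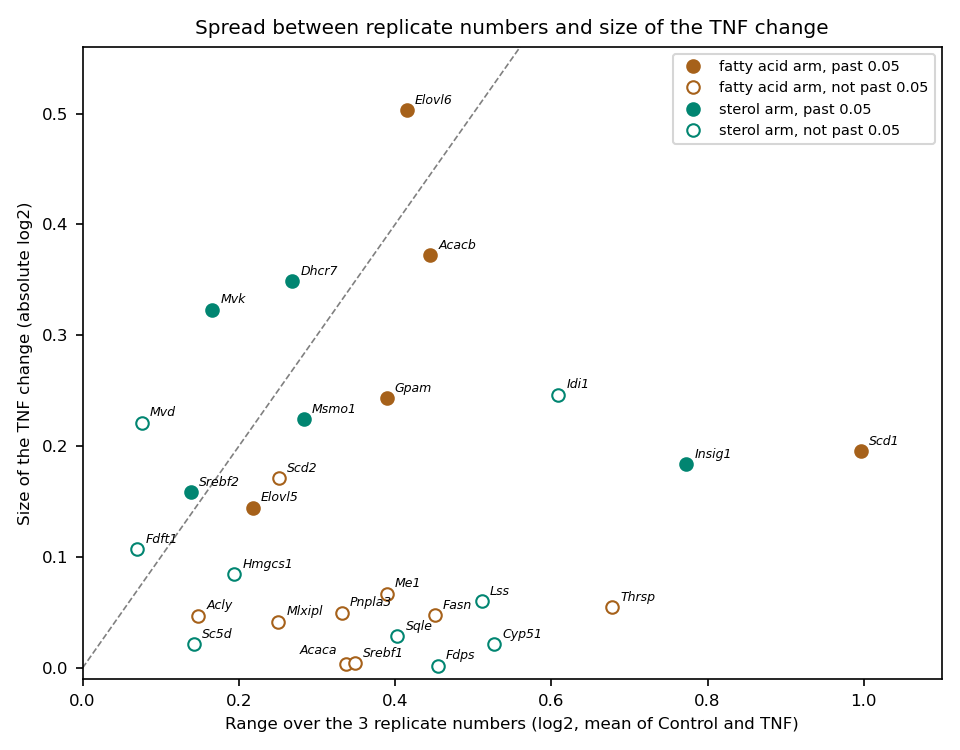
Size of the TNF change (vertical axis, absolute log2) against the range over the 3 replicate numbers (horizontal axis, log2, mean of both groups) for each of the 28 genes, coloured by arm and filled where the blocked test was passed. Points below the dashed line of equality vary more between numbers than with TNF, which holds for 22 of the 28, and Scd1 at the far right has a range of 1.99-fold.

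Genes around the 2 arms, from lists of the same pathways, also split. These lists too were chosen with earlier results of these data known. Their shares past the blocked test are to be read beside the 20.6% of all genes tested (9.4% higher and 11.2% lower). Of 10 other sterol synthesis enzymes tested, 1 rose and 3 fell (40.0% past the test). Lbr, a sterol reductase of the inner nuclear membrane, rose by 0.28 (limma blocked adjusted p = 0.00568). Ebp, the sterol isomerase, fell by 0.21, and Pmvk, the kinase that follows mevalonate kinase, fell by 0.28, a call lost without pair 1 or pair 2.

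Of 11 genes of SREBP processing and turnover, 1 rose and 1 fell (18.2%, near the share of all genes). Insig2, the retention protein that is not induced by SREBPs in the way of Insig1, fell by 0.33 (limma blocked adjusted p = 2.13e-05), and Erlin2, a protein of degradation at the endoplasmic reticulum, rose by 0.15, a call lost without pair 3. Of 12 genes of sterol uptake and transport, 1 rose and 3 fell (33.3%). Tmem97, which binds the lysosomal sterol transporter, rose by 0.34. The lipoprotein receptor Lrp1, the lysosomal lipase Lipa and the transporter Npc1 fell by 0.40, 0.27 and 0.21.

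Of 17 other genes of fatty acid synthesis and elongation, 3 rose and 6 fell (52.9%). Hacd2 and Hsd17b12, which act within the elongation cycle, rose by 0.27 and 0.18, and Mid1ip1, a partner of Thrsp that activates acetyl-CoA carboxylase, rose by 0.21. Elovl2 and Fads2, an elongase and a desaturase of polyunsaturated fatty acids, fell by 0.39 and 0.28, and the malonyl-CoA decarboxylase Mlycd fell by 0.22. Among 12 genes that supply NADPH or glycolytic carbon, 3 rose and 5 fell (66.7%). Pklr, the liver pyruvate kinase, and Pgd, an NADPH-forming dehydrogenase of the pentose phosphate pathway, rose by 0.50 and 0.37. Taldo1, transaldolase, rose by 0.19. Pklr measured 108, 90.5 and 101 CPM in Control and 132, 149 and 143 CPM in TNF, with no overlap between the groups. Pfkfb1, a bifunctional enzyme that regulates glycolysis, fell by 0.53 (limma blocked adjusted p = 0.00107).

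Of 13 glycerolipid synthesis genes, 1 rose and 4 fell (38.5%). Dgat2, which completes triglyceride synthesis, rose by 0.23, and the phosphatidate phosphatases Lpin1 and Lpin2 and the ethanolamine branch enzyme Pcyt2 fell by 0.32, 0.20 and 0.27. The change of Lpin1 rested on pair 2 (-0.76, against -0.07 and -0.15 in pairs 1 and 3), and without it was -0.11 and did not pass (adjusted p = 0.274). Of 20 upstream regulators, 1 rose and 4 fell (25.0%, near the share of all genes). The insulin receptor substrates Irs2 and Irs1 fell by 0.27 and 0.23. Irs2 did not pass without pair 2 (adjusted p = 0.135), and Irs1 did not pass without pair 1 (0.0642) or pair 3 (0.0910). Usf2, an E-box factor, fell by 0.20 and did not pass without pair 2 (-0.14, adjusted p = 0.0900). Nfya, a subunit of NF-Y, rose by 0.18, a call lost on leaving out any pair. The LXRα gene Nr1h3, known to activate Srebf1, differed by -0.06 and did not pass (limma blocked adjusted p = 0.372). In the unpaired limma fit no gene of these lists passed.

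**Figure D4:**
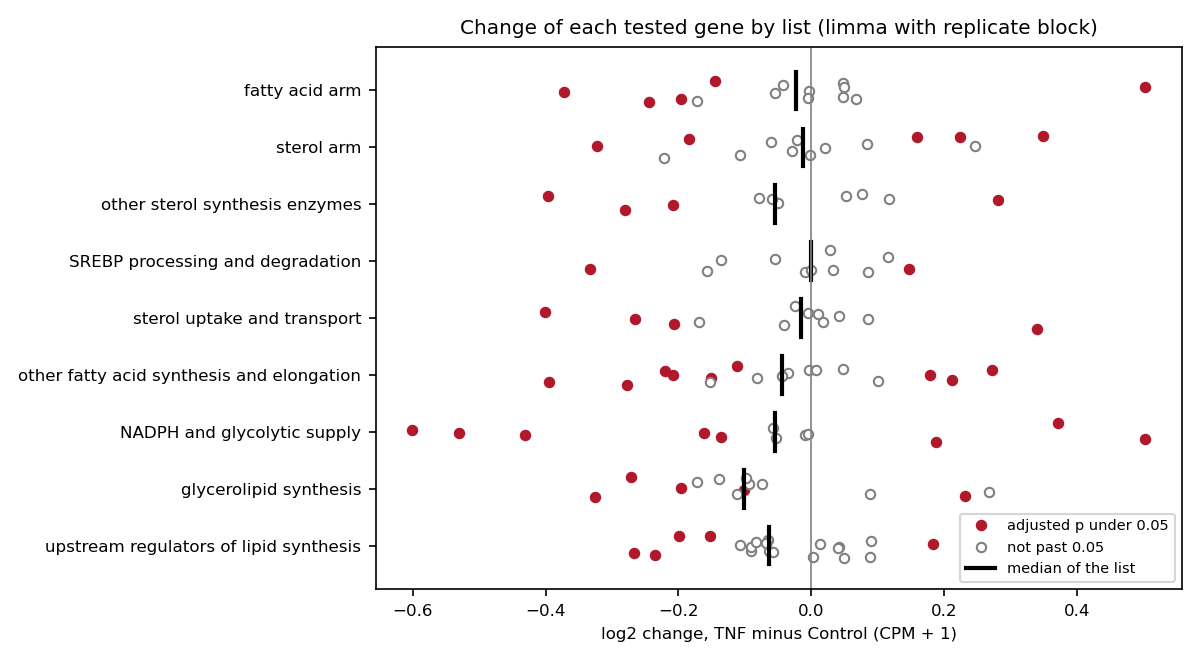
Log2 change (TNF minus Control, CPM + 1) of each tested gene in the 2 arms and in 7 lists of related pathway genes, 1 point a gene, filled where it passed the blocked limma test. Black bars are the medians, and in each of the 2 arms and 7 lists filled points lie on both sides of 0.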

How the data were processed

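polyA RNA of 6 hepatocyte samples (3 Control, 3 TNF) was sequenced as paired-end libraries, per the labels' protocols, and aligned with STAR 2.6.1a to mm10, per the submitters' processing notes. The program and annotation used for counting, and its strandedness, are not stated in any label. The authors deposited log2 CPM for 19764 genes and, in the same table, their own comparison (log2 fold change, likelihood ratio score, raw and adjusted p-value), whose model is likewise not stated. In 85.0% of genes the counted length was the whole gene span, introns included.

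The deposited log2 values had a floor of -3.35 (0.0978 CPM). With it subtracted, 100.0% of 118584 values were whole multiples of 1 read (tolerance 1e-06). Genes were kept (12293) if 3 libraries each had 10 reads at the median library's size and all libraries together had 15. limma 3.58.1 in R 4.3.3 was fitted to log2(CPM + 1) with its trend option, two-sided, with Benjamini-Hochberg adjustment over these genes. This scale understates changes of low genes. Blocked SEs lean on the variance shared between genes. limma-voom on the recovered reads was an alternative, as were other scalings, pseudocounts and filters and leaving out libraries or pairs.

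Replicate numbers come from the titles. Deviations of same-numbered libraries from their group means correlated across genes at 0.784, 0.789 and 0.793, so by the rule used the numbers pair the samples. Those of other libraries correlated at -0.472 to -0.335. Deviations within a group sum to 0, which pushes these values below 0, so they are no separate evidence of pairing. The members and lists were chosen with earlier results of these data known. All 28 members are named, and from each list up to 3 genes in each direction with the largest changes past the blocked threshold, with Nr1h3 and Insig2 always. Some genes that this rule takes from the lists are not reported here, though the counts over the lists include them. Counting intervals and floors cover counting error only.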

Additional observations from a re-analysis of the deposited data

How the results depend on the processing

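Without the replicate block 0 genes of either arm passed under each of the 14 unpaired alternatives, and with it 5 passed in each arm. Over all genes the unpaired fit called 53, the replicate block 2530, and the unpaired fit with no filter 31. Leaving out 1 library gave 9 to 30. With the block, counts ran from 1743 (no filter) to 2619, and 7 of the 10 calls (Acacb, Scd1, Elovl6, Gpam, Dhcr7, Mvk and Msmo1) held in all 11 blocked alternatives. The sterol arm had 3 to 5 calls when a pair was left out, 3 without replicate 2. With no filter Insig1 also lost its call (adjusted p = 0.0667), as did Pmvk (0.107), Lpin1 (0.167), Nfya (0.0545), Irs2 (0.0537) and Irs1 (0.0589). Median-of-ratios scaling moved the median of all genes by 0.0095 and the blocked split to 1290 higher and 1282 lower, against 1156 and 1374.

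The difference between the arms' medians ranged from -0.066 to 0.045 when 1 library was left out and from -0.054 to 0.013 when 1 pair was left out with the replicate block. Signs of changes near 0 were not stable. In the unpaired fit, leaving out 1 library also turned the signs of Scd1, Insig1 and Taldo1, which passed the blocked test. With the replicate block, leaving out 1 pair gave -0.21 to -0.17 for Scd1 and -0.23 to -0.13 for Insig1. Median-of-ratios scaling turned Acaca (0.0068), Srebf1 (0.0054) and Fdps (0.0081) in both fits. Leaving out 1 library without the block gave -0.072 to 0.18 for Fasn, -0.099 to 0.090 for Acaca, -0.48 to 0.073 for Scd1, -0.078 to 0.18 for Me1, -0.27 to 0.12 for Thrsp and -0.11 to 0.082 for Srebf1. It gave -0.10 to 0.071 for Mlxipl, -0.054 to 0.17 for Pnpla3, -0.14 to 0.098 for Sqle, -0.14 to 0.11 for Fdps, -0.20 to 0.071 for Lss and -0.18 to 0.13 for Cyp51. The range was -0.41 to 0.026 for Insig1, -0.015 to 0.071 for Sc5d and -0.025 to 0.43 for Taldo1. Leaving out 1 pair with the replicate block gave -0.016 to 0.013 for Acaca, -0.14 to 0.0080 for Thrsp, -0.020 to 0.0070 for Srebf1, -0.095 to 0.035 for Mlxipl, -0.059 to 0.018 for Sqle and -0.029 to 0.033 for Fdps. It gave -0.062 to 0.024 for Cyp51. The cause was not tested. Depth limits Pnpla3, Scd2 and Idi1, with few reads and wide intervals.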

Other observations

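Some related enzymes shifted against each other within each library. Ratios of CPM within a library do not depend on its total. The 2 ratios below were chosen after their values were seen, so no test is given. Acacb to Acaca, the 2 acetyl-CoA carboxylases, stood at 1.61, 1.19 and 1.87 in Control 1, 2 and 3 and at 1.22, 0.907 and 1.49 in TNF 1, 2 and 3. Within the pairs the TNF ratio was 0.757, 0.762 and 0.797 of the Control ratio, a narrow range beside the spread between numbers. Elovl6 to Elovl5, the elongases of palmitate and of polyunsaturated fatty acids, went from 0.894, 0.691 and 0.656 to 1.13, 1.20 and 1.16. A ratio within a library shows unequal change of 2 genes and not which of them changed.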
